A study of Mus musculus with 8 samples.

Results

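Matrix metalloproteinases, ADAMTS proteases and their TIMP inhibitors were followed in mammary glands of virgin female mice that differed in Sox9, a transcription factor gene. The genes were chosen by symbol, as every Mmp or Adamts gene with a number and Timp1 to Timp4, and 44 of the 19938 genes tested met this rule. They were 22 Mmp genes, 18 Adamts genes and 4 Timp genes, while Mmp15 and Adamts2 were not analysed here. The study set 4 glands of MMTV-Cre;Sox9 flox/flox mice against 4 glands of MMTV-Cre;Sox9 flox/+ mice, all 5 weeks old and of mixed C57BL/6 X FVB background. The flox/+ controls thus carried the Cre transgene and a floxed Sox9 copy as well. The MMTV promoter that drives Cre is known for activity mainly in mammary epithelium, and which cells of these glands lost Sox9 was not measured. The labels do not say which piece of Sox9 is lost on recombination. A piece of gland beside the lymph nodes was used for each Affymetrix Gene 1.0 ST array, and precision is set by there being 4 arrays of each genotype.

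Matrix metalloproteinases are zinc enzymes that cut collagens, laminins and other matrix proteins, and most are secreted as inactive precursors. ADAMTS proteases are related secreted enzymes that cut proteoglycans such as aggrecan and versican, trim procollagens or act on fibrillin-rich fibres. The TIMPs bind the active sites of these enzymes, and TIMP3, which stays bound to matrix, is the member known to inhibit aggrecan-cutting ADAMTS enzymes. In the pubertal mammary gland ducts grow into fat through a matrix that is remodelled by these enzymes, many of which are made by stromal cells around the ducts. MMP2, MMP3 and MMP14 are known for roles in ductal elongation and branching, and TIMPs for restraining it.

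Intensities below are linear values after quantile normalisation, given with the SD over 4 glands. Each difference is the flox/flox mean less the flox/+ mean, in log2 of intensity plus 16, with the SE of a limma fit over all genes. A gene was called at a Benjamini-Hochberg adjusted p under 0.05. Sox9 had a mean of 409.9 ± 35.1 in controls and 323 ± 35.7 in flox/flox glands (SD, n = 4), without overlap (difference -0.33 ± 0.09 SE; adjusted p = 0.256; 2-sided exact permutation p = 0.0286). Luminal epithelial markers, 7 of 7 measured, summed to 9897 to 11948 in flox/+ and 9639 to 12078 in flox/flox glands, so epithelium was sampled in each. Cell cycle genes, 5 of 6 measured, summed to 1163 to 1383 in flox/+ and 775 to 1039 in flox/flox glands. All 5 were lower at an unadjusted p under 0.05 (100%, against 5.46% of all genes), and 1 passed the test. In flox/+ replicate 2 the 4 measured B cell markers summed to 2725, against 316 to 395 in the other glands. The part of either in the results below was not tested. In whole glands, fewer cells of a type and less RNA per cell cannot be told apart.

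None of the 44 genes passed the test. The inhibitors lay farthest apart: Timp3 and Timp4 read higher and Timp1 lower in flox/flox glands, while the 22 Mmp genes ran from -0.35 (Mmp14) to 0.29 (Mmp27) on the log2 scale, 11 of them negative. The smallest adjusted p of a member in the limma fit was 0.239, that of Timp3, and over all genes 8 (0.0401%) passed. At an unadjusted limma p under 0.05 there were 6 of 44 (13.6%), namely Timp1, Timp3, Timp4, Adamts4, Adamts17 and Adamts18, against 10.3% of all genes. Of these 2 were higher, 4.55% of members against 4.8% of all genes, and 4 were lower, 9.09% of members against 5.46%. Genotypes were without overlap in 1 member, Timp3 (2.27%, against 5.89% of all genes in either direction), which read higher in flox/flox glands, beside 2.73% of all genes in that direction. In the lower direction 0 members were without overlap, against 3.16% of all genes. The count of lower members was 2 without flox/flox replicate 2 and 7 without flox/flox replicate 4. The count of higher members was 1 if a gland was left out among flox/+ replicates 1, 3 and 4 or flox/flox replicates 1 and 2. The number of lower members without overlap became 1 without flox/+ replicate 4 or flox/flox replicate 1, 2 without flox/flox replicate 3 and 3 without flox/flox replicate 4. That of higher members became 2 without flox/+ replicate 2 or 3 or flox/flox replicate 2.

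The median difference was -0.01 for the Mmp genes, -0.08 for the Adamts genes and 0.27 for the Timp genes, beside -0.01 over all genes. Of the 22 Mmp genes 11 were negative and 11 positive, of the 18 Adamts genes 12 and 6, and of the 4 Timp genes 1 and 3. For 38 of the 44 genes the 95% interval of the difference included 0. The spread between glands of the same genotype, as the pooled SD of log2 values, had a median of 0.17 over the members and 0.12 over all genes, and 32 of the 44 members lay above the median of all genes. The widest interval was that of Timp1, as the plot of all differences shows.

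**Figure D1:**
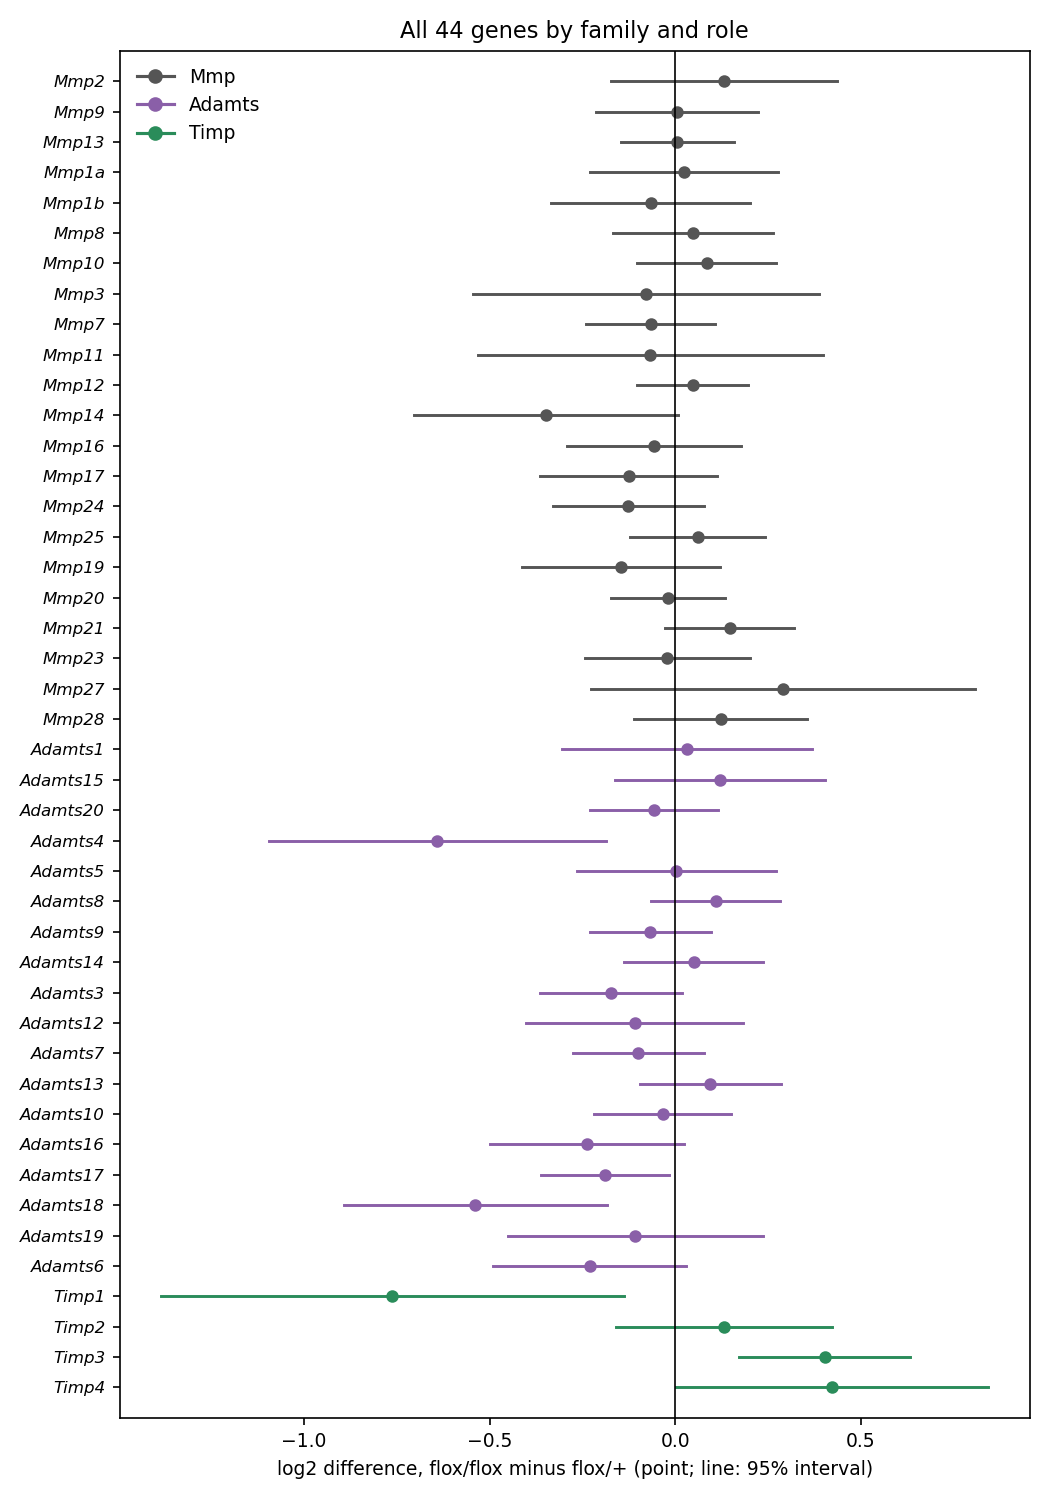
Log2 difference between flox/flox and flox/+ glands for each of the 44 genes, by family, with points for the estimate and lines for the 95% interval of the limma fit (4 glands per genotype). The lines of 38 genes include 0, and Timp1 (-0.76) and Timp4 (0.42) mark the ends of the range.

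The inhibitors are described first. In the RefSeq gene table (GRCm38.p6) 3 of them lie inside a synapsin gene: Timp1 in Syn1 on chromosome X, Timp3 in Syn3 on chromosome 10 and Timp4 in Syn2 on chromosome 6. Timp2, on chromosome 11, has no such host. Differences of the hosts were -0.02 ± 0.07 for Syn1, -0.05 ± 0.08 for Syn3 and -0.17 ± 0.22 for Syn2 (SE, n = 4 per genotype), and their values overlapped between the genotypes. Syn1 read 97.5 to 120 and Syn3 97.4 to 126, at the level of dim members, named below, that cannot be told from background. Small differences of Syn1 and Syn3 are therefore not evidence of stable expression. The 250 bases before the starts of Timp3 and Timp1 are shown because these inhibitors read in opposite directions. Sequences are RefSeq's, read on the strand of the gene, and capitals mark GGGCGG or its reverse complement, the GC box.
Timp3 (chr10:86300162-86300411, + strand): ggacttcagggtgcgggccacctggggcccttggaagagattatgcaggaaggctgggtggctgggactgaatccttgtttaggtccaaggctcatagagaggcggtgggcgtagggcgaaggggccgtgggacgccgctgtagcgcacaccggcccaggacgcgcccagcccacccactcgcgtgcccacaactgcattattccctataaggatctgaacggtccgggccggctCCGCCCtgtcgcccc
Timp1 (chrX:20869916-20870165, + strand): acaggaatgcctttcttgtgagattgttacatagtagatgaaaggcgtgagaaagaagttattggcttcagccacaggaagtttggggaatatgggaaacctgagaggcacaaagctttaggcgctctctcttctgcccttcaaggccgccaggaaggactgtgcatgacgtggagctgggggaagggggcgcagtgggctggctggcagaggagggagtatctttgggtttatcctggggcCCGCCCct
Both windows hold a GC box, 15 bases before the start in Timp3 and 8 bases before it in Timp1, as do 32.7% of the 32851 windows of this length. The window of Timp3 has 65.6% G and C and 18 CG pairs, and that of Timp1 54.4% and 6, beside medians of 52.4% and 6 over all windows.

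Timp3, the matrix-bound inhibitor, read 1771, 1733, 1749 and 1553 in flox/+ and 2649, 2487, 1964 and 1986 in flox/flox replicates 1 to 4. Each flox/flox gland lay above each control, and flox/flox replicates 1 and 2 stood above the other two. The means were 1701 ± 99.9 in flox/+ and 2271 ± 349 in flox/flox glands (SD, n = 4), a fold of 1.32. The log2 difference was 0.40 ± 0.10 (SE, 95% interval 0.17 to 0.63; limma p = 0.00281, adjusted p = 0.239; 2-sided exact permutation p = 0.0286), the last being the smallest p that 4 against 4 glands allow. Mast cell markers, 6 of 6 measured, summed to 1946 to 2288 in flox/+ and 2055 to 2748 in flox/flox glands. At an unadjusted p under 0.05, 3 of them were higher (50%, against 4.8% of all genes). Brown adipocyte markers, 5 of 5 measured, summed to 3836 to 7637 in flox/+ and 5789.5 to 10653 in flox/flox glands. Of these 2 were higher at that level (40%). The brown adipocyte sum was highest in flox/flox replicate 1, as was Timp3, and was 7637 in flox/+ replicate 4, where Timp3 was lowest. The lowest single readings in these lists were 42.5 and 43.0. The part of either list in the Timp3 difference was not tested.

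Timp1, an inhibitor known to be induced in tissue remodelling, was the member with the largest difference in size. It read 399, 218, 455 and 208 in flox/+ and 137, 115, 257 and 209.9 in flox/flox replicates 1 to 4. Control replicates 1 and 3 were high, flox/flox replicates 1 and 2 were low, and the other 4 glands of both genotypes lay close together. The means were 320.2 ± 126 and 179.9 ± 65.5 (SD, n = 4), so controls were 1.70-fold higher. The log2 difference was -0.76 ± 0.28 (SE, 95% interval -1.38 to -0.14; limma p = 0.0211, adjusted p = 0.389; 2-sided exact permutation p = 0.143). Without flox/+ replicate 3 it was -0.58, and without flox/flox replicate 3 it was -0.94.

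Timp4, an inhibitor found in heart, muscle and fat, read 391, 532, 322 and 309 in flox/+ and 485, 653, 592 and 372 in flox/flox replicates 1 to 4. The genotypes overlapped, with flox/+ replicate 2 among the upper values and flox/flox replicate 4 among the lower ones. The log2 difference was 0.42 ± 0.19 (SE, 95% interval 0.00 to 0.84; limma p = 0.0493, adjusted p = 0.485; 2-sided exact permutation p = 0.143). Without flox/flox replicate 2 it was 0.31 and without flox/+ replicate 2 it was 0.58. White adipocyte markers, 7 of 7 measured and 0 of them at an unadjusted limma p under 0.05, summed to 32197 to 37213 in flox/+ and 32144 to 37320.1 in flox/flox glands. This sum was highest in flox/flox replicate 2, as was Timp4, and nearly as high (37213) in flox/+ replicate 4, where Timp4 was lowest. The part of white adipocytes in the Timp4 values was not tested. Timp2, which also takes part in the activation of pro-MMP2 by MMP14, read 1608, 1654, 2154 and 2018 in flox/+ and 2458, 1653, 2169.6 and 1892 in flox/flox replicates 1 to 4. The genotypes overlapped widely, with a difference of 0.13 ± 0.13 (SE; 95% interval -0.16 to 0.42; adjusted p = 0.784).

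**Figure D2:**
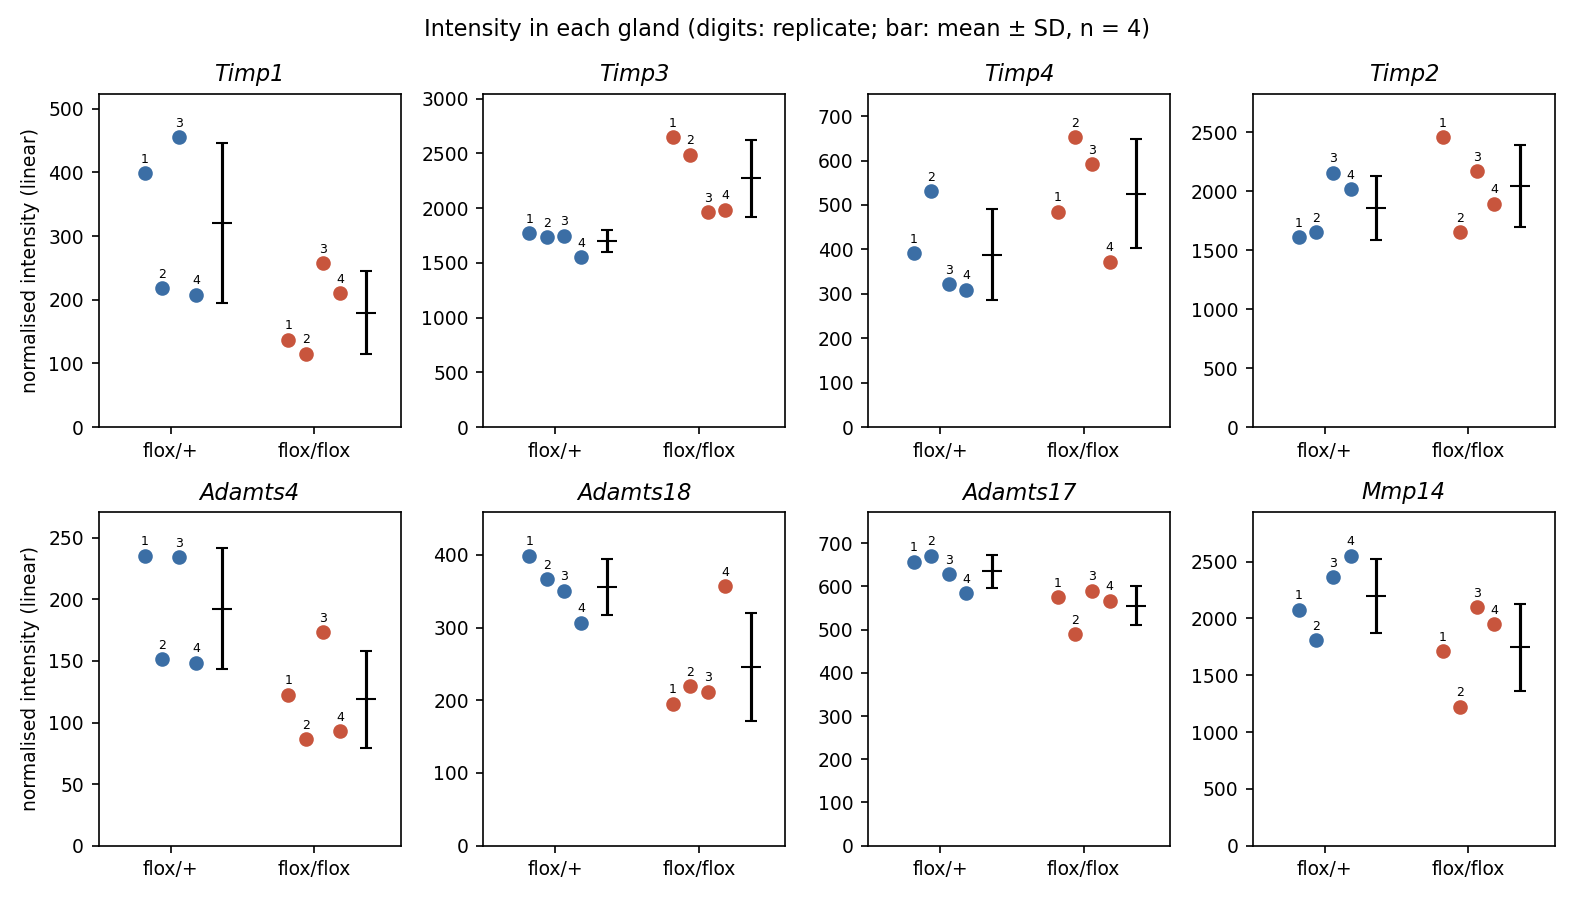
Normalised intensity (linear scale) of 8 genes in each gland, with points for glands and bars for the mean ± SD of 4 glands. The Timp3 values of the genotypes do not overlap, with all controls at or below 1771 and all flox/flox glands at or above 1964, whereas those of the other 7 genes do.

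Among the ADAMTS proteases the 7 genes that cut proteoglycans had a median difference of 0.00, with 3 negative and 4 positive, and Adamts4 had the largest difference in size. Adamts4, an aggrecanase, read 236, 152, 234 and 148 in flox/+ and 123, 86.6, 173 and 93.1 in flox/flox replicates 1 to 4. Only flox/flox replicate 3 reached into the control range. The means were 192 ± 49.0 and 119 ± 39.4 (SD, n = 4), 1.56-fold higher in controls. Flox/flox replicates 2 and 4 read at the level of Mmp13 (85.5 to 102), a dim member whose level cannot be told from background. The size of the Adamts4 fold is therefore uncertain. The log2 difference was -0.64 ± 0.21 (SE, 95% interval -1.09 to -0.19; limma p = 0.0100, adjusted p = 0.309; 2-sided exact permutation p = 0.0857). The same glands were high and low for Adamts4 and Timp1: flox/+ replicates 1 and 3 held the highest 2 values of either gene, flox/flox replicate 3 the next, and flox/flox replicate 2 the lowest.

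The other proteoglycan-cutting members gave differences nearer 0. Adamts1, which acts on versican and is known from ovulation, read 327, 311, 461 and 341 in flox/+ and 459, 380.2, 362 and 276 in flox/flox replicates 1 to 4 (0.03 ± 0.15 SE, 95% interval -0.31 to 0.37). Adamts5, the other main aggrecanase, read 557, 622, 672 and 749.7 in flox/+ and 609, 786, 684 and 537 in flox/flox replicates 1 to 4 (0.00 ± 0.12, 95% interval -0.27 to 0.27). Each genotype held high and low glands for both genes. Adamts9, a versican-cutting enzyme, read 725, 669, 696 and 637 in flox/+ and 654, 616, 719 and 614 in flox/flox replicates 1 to 4 (-0.07 ± 0.07), and its 5 other probe sets ran from -0.10 to 0.10. Adamts8, Adamts15 and Adamts20 had differences of 0.11 ± 0.08, 0.12 ± 0.13 and -0.06 ± 0.08.

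The 6 ADAMTS genes outside the proteoglycan, procollagen, cartilage and von Willebrand factor groups were all negative, with a median of -0.21, while 10488 of all 19938 genes were negative. At an unadjusted p under 0.05 there were 2 of the 6, both lower (33.3%, against 5.46% of all genes). Adamts18, a secreted protease known for a part in branching of epithelial organs, read 399, 366, 351 and 307 in flox/+ and 195, 219, 212 and 357 in flox/flox replicates 1 to 4. Thus 3 flox/flox glands lay below every control and the other within the control range. The means were 356 ± 38.4 and 246 ± 74.6 (SD, n = 4), 1.45-fold higher in controls, with a log2 difference of -0.54 ± 0.16 (SE, 95% interval -0.89 to -0.18; limma p = 0.00655, adjusted p = 0.282; 2-sided exact permutation p = 0.0857). Without flox/flox replicate 4 the difference was -0.72, and the genotypes then did not overlap. That gland also had the highest sums of luminal (12078) and basal (9477) epithelial markers, each 7 of 7 measured, with the other glands at up to 11948 and 8189. Their part in its Adamts18 value was not tested. The window before the start of Adamts18 is shown as that of a member whose genotypes separated but for 1 gland, with a GC box in capitals.
Adamts18 (chr8:113848840-113849089, - strand): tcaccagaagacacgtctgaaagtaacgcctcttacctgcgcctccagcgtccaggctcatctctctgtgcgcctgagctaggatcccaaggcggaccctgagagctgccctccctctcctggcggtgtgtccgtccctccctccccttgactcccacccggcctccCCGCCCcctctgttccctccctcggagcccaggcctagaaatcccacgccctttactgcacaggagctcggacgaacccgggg
It has 65.2% G and C and 15 CG pairs, and its GC box lies 83 bases before the start.

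Adamts17, a protease of microfibril-rich matrix, read 657, 672, 628 and 584 in flox/+ and 576, 490.0, 590.1 and 567 in flox/flox replicates 1 to 4. The ranges met only at flox/+ replicate 4 and flox/flox replicate 3. The difference was -0.19 ± 0.08 (SE, 95% interval -0.36 to -0.02; limma p = 0.0336, adjusted p = 0.450; 2-sided exact permutation p = 0.0571), and it was -0.15 with the values as deposited. All 4 other probe sets of Adamts17 were negative, from -0.43 to -0.06, and 3 of them had an unadjusted p under 0.05. Those at -0.43 and -0.29 had mean intensities of 110 and 102, at the level of dim members that cannot be told from background. Probe sets of a gene read the same RNA samples and are not independent of each other. The remaining genes were Adamts16 (-0.24 ± 0.12 SE), Adamts6 (-0.23 ± 0.12), Adamts19 (-0.11 ± 0.16) and Adamts10 (-0.03 ± 0.08), with an interval that included 0 for each. Adamts10 and Adamts6 act on fibrillin-rich microfibrils.

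The procollagen N-proteinases remove the amino-terminal propeptides of fibrillar collagens. Adamts3 read 333, 304, 288 and 328 in flox/+ and 286, 238, 275 and 309 in flox/flox replicates 1 to 4, with a difference of -0.17 ± 0.09 (SE; adjusted p = 0.529; exact permutation p = 0.114). Of its 16 probe sets 14 were negative, and 5 of the 15 other than the chosen one had an unadjusted p under 0.05. Their mean gave -0.16, and as this mean the genotypes of Adamts3 did not overlap. Probe sets other than the chosen one had mean intensities from 62.7 to 249, the lower of them at the level of dim members. They read the same RNA samples and are not independent of each other. Adamts14 was at 0.05 ± 0.08. Of the genes that cut cartilage oligomeric matrix protein, Adamts12 read 1289, 1412, 1491 and 1916 in flox/+ and 1508, 1152, 1365 and 1614 in flox/flox replicates 1 to 4 (-0.11 ± 0.13), and Adamts7 was at -0.10 ± 0.08. Adamts13, which cuts von Willebrand factor, was at 0.09 ± 0.09.

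Of the metalloproteinase genes 10 lie beside each other on chromosome 9, among them the secreted collagenases, stromelysin-1, stromelysin-2 and matrilysin. They follow in the order Mmp13, Mmp12, Mmp1b, Mmp3, Mmp1a, Mmp10, Mmp8, Mmp27, Mmp20 and Mmp7. The AP-1 motif TGANTCA, searched on both strands of the 250 bases before the start, was present for 8 of these 10 genes, for 0 of the 20 other members with a window, and in 6.75% of all windows. The TATA motif TATAAA was present for 7 of the 10 and 2 of the 20, and in 12.4% of all windows. The GC box was present for 0 of the 10 and 14 of the 20. The SOX motif AACAATG was present for Mmp7 and Mmp25 among the members, and in 3.29% of all windows. No match overlapped a match of another motif. The 120 bases before the start are shown for 4 of the cluster genes, with the AP-1 and TATA letters in capitals, since this pair of motifs is what most of the cluster shares.
Mmp13 (chr9:7272394-7272513, + strand): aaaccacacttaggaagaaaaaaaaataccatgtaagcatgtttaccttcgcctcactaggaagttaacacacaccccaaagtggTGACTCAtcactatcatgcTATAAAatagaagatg
Mmp3 (chr9:7445702-7445821, + strand): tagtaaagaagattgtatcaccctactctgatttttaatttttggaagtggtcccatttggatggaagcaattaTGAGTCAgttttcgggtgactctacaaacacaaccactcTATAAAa
Mmp1a (chr9:7464021-7464140, + strand): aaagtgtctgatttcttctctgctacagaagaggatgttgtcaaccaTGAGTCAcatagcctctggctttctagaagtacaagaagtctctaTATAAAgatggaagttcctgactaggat
Mmp10 (chr9:7502222-7502341, + strand): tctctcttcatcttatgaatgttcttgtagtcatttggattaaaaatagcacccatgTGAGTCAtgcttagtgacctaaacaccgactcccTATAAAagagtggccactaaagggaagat
The AP-1 letters begin 35 bases before the start in Mmp13, 46 in Mmp3, 73 in Mmp1a and 63 in Mmp10. A match is a run of letters and was not tested for binding.

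None of the 10 cluster genes had an unadjusted p under 0.05, and their differences ran from -0.08 for Mmp3 to 0.29 for Mmp27. Mmp3, stromelysin-1, read 261, 497, 478 and 491 in flox/+ and 493, 281, 435 and 404 in flox/flox replicates 1 to 4. In each genotype 1 gland lay far below the others, flox/+ replicate 1 and flox/flox replicate 2. The difference was -0.08 ± 0.21 (SE, 95% interval -0.55 to 0.39). Mmp27, a little-studied neighbour, read 132, 169, 225 and 296 in flox/+ and 344, 210.4, 271 and 180.3 in flox/flox replicates 1 to 4 (0.29 ± 0.23, 95% interval -0.23 to 0.81), with the lowest control and the highest flox/flox gland 2.62-fold apart. Mmp13, collagenase-3, read 89.7, 94.3, 85.8 and 92.3 in flox/+ and 89.5, 85.5, 102 and 87.2 in flox/flox replicates 1 to 4 and varied little between glands (0.01 ± 0.07, 95% interval -0.15 to 0.16). Stromelysin-2, Mmp10, was at 0.09 ± 0.08, matrilysin, Mmp7, at -0.07 ± 0.08, the macrophage elastase Mmp12 at 0.05 ± 0.07 and the enamel protease Mmp20 at -0.02 ± 0.07. Mmp1a, Mmp1b and Mmp8 read between 9.66 and 44.1 in all glands. With Mmp7, Mmp10, Mmp13 and Mmp20 they lay in the dimmest 33% of the genes tested, as did Mmp21, Adamts6, Adamts8, Adamts16 and Adamts20. No detection calls are given, so the levels of these 12 genes cannot be told from background. A small spread between glands, as for Mmp13, is therefore not evidence of stable expression.

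Genes listed as AP-1 factors and other inducers of these proteases numbered 15 of 16 measured. None passed the test, and at an unadjusted limma p under 0.05 there was 1 higher and 3 lower, 26.7% against 10.3% of all genes. The cytokine gene Il1b was at -0.26 ± 0.08 (SE) and the AP-1 factor genes Fosb and Fosl1 at -0.22 ± 0.07 and -0.23 ± 0.09. Other AP-1 factor genes read in both directions, with Jun at 0.18 ± 0.10, Jund at 0.10 ± 0.10 and Fosl2 at 0.09 ± 0.07. Fos was at -0.07 ± 0.09 and Junb at -0.12 ± 0.08. The gene counted as higher was Cd44 (0.27 ± 0.11), without overlap. Fosb read 154, 162, 167 and 164 in flox/+ and 153, 142, 123 and 130.3 in flox/flox replicates 1 to 4, with the highest flox/flox gland just under the lowest control. Il1b read 67.9, 72.0, 77.9 and 65.8 in flox/+ and 58.0, 58.3, 47.6 and 63.9 in flox/flox replicates 1 to 4, also without overlap. All Il1b readings lay below those of the dim member Mmp13 (85.5 to 102), so its level too cannot be told from background.

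Of the gelatinases, which cut denatured collagen and basement membrane collagen, Mmp2 read 2003, 2242, 2459.6 and 3027 in flox/+ and 3061, 2142, 2862 and 2572 in flox/flox replicates 1 to 4. The ranges overlapped over most of their length, and the difference was 0.13 ± 0.14 (SE, 95% interval -0.17 to 0.44; adjusted p = 0.794). Mmp9 read 158, 179.7, 176 and 177 in flox/+ and 207, 142, 168 and 179.7 in flox/flox replicates 1 to 4, a difference of 0.00 ± 0.10 with a 95% interval of -0.21 to 0.22. The highest and the lowest gland for Mmp9 were both flox/flox.

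The membrane-type enzymes were negative in 4 of 5 genes, with a median of -0.13 and 0 at an unadjusted limma p under 0.05. Mmp14, a membrane-anchored collagenase that also activates pro-MMP2, read 2078, 1806, 2361 and 2554 in flox/+ and 1709.8, 1222, 2101 and 1948 in flox/flox replicates 1 to 4. Flox/flox replicate 2 was far the lowest, and 2 of the other flox/flox glands lay within the control range. The means were 2199.9 ± 327 and 1745 ± 384 (SD, n = 4), with a log2 difference of -0.35 ± 0.16 (SE, 95% interval -0.70 to 0.01; limma p = 0.0550, adjusted p = 0.497; 2-sided exact permutation p = 0.143). Without flox/flox replicate 2 it was -0.19 and without flox/flox replicate 3 it was -0.45. Of 9 fibroblast markers, all measured, 5 were negative and 4 positive. At an unadjusted p under 0.05 there were 3 lower (33.3%, against 5.46% of all genes) and 0 higher. The positive ones were Pi16 (0.19), Dpt (0.12), Pdgfra (0.02) and Dcn (0.00). Marker intensities summed to 36524 to 46761 in flox/+ and 33320.1 to 39326 in flox/flox glands, with a lowest single reading of 436. Col1a1, Col1a2 and Col3a1 made up most of this sum. This sum was lowest in flox/flox replicate 2 and highest in flox/+ replicates 3 and 4, as was Mmp14. Its part in the Mmp14 value was not tested. Mmp24 read 1138, 1234.1, 1066 and 1142 in flox/+ and 1143, 869.9, 1079.8 and 1115 in flox/flox replicates 1 to 4 (-0.13 ± 0.09), again lowest in flox/flox replicate 2. Mmp17 was at -0.13 ± 0.11, Mmp16 at -0.06 ± 0.11 and Mmp25 at 0.06 ± 0.08.

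Mmp11, stromelysin-3, is made by fibroblasts beside epithelium. It read 229, 239, 229.7 and 433 in flox/+ and 306, 267, 304 and 181 in flox/flox replicates 1 to 4. The highest gland, flox/+ replicate 4, and the lowest, flox/flox replicate 4, were 2.40-fold apart. The difference was -0.07 ± 0.21 (SE), and it was 0.15 without flox/+ replicate 4 and 0.09 without flox/flox replicate 4. Mmp19, a protease found in vessels and skin, read 649.5, 605, 754 and 552 in flox/+ and 497, 512, 694 and 609 in flox/flox replicates 1 to 4 (-0.15 ± 0.12), with overlap. The other metalloproteinases were Mmp21 (0.15 ± 0.08), the epithelial protease Mmp28 (0.12 ± 0.11) and Mmp23 (-0.02 ± 0.10).

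Across glands flox/flox replicate 2 was the lowest for 14 of the 44 genes (31.8%), against 17.2% of all genes, among them 7 of the 18 Adamts genes and 6 of the 22 Mmp genes. The median over the members of log2 level relative to the gene's own mean was -0.13 in that gland, and between -0.02 and 0.08 in the other 7. Each other gland was lowest for at most 8 members. The highest level was spread evenly, each gland holding it for 4 to 7 members, as the heat map of relative levels shows.

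**Figure D3:**
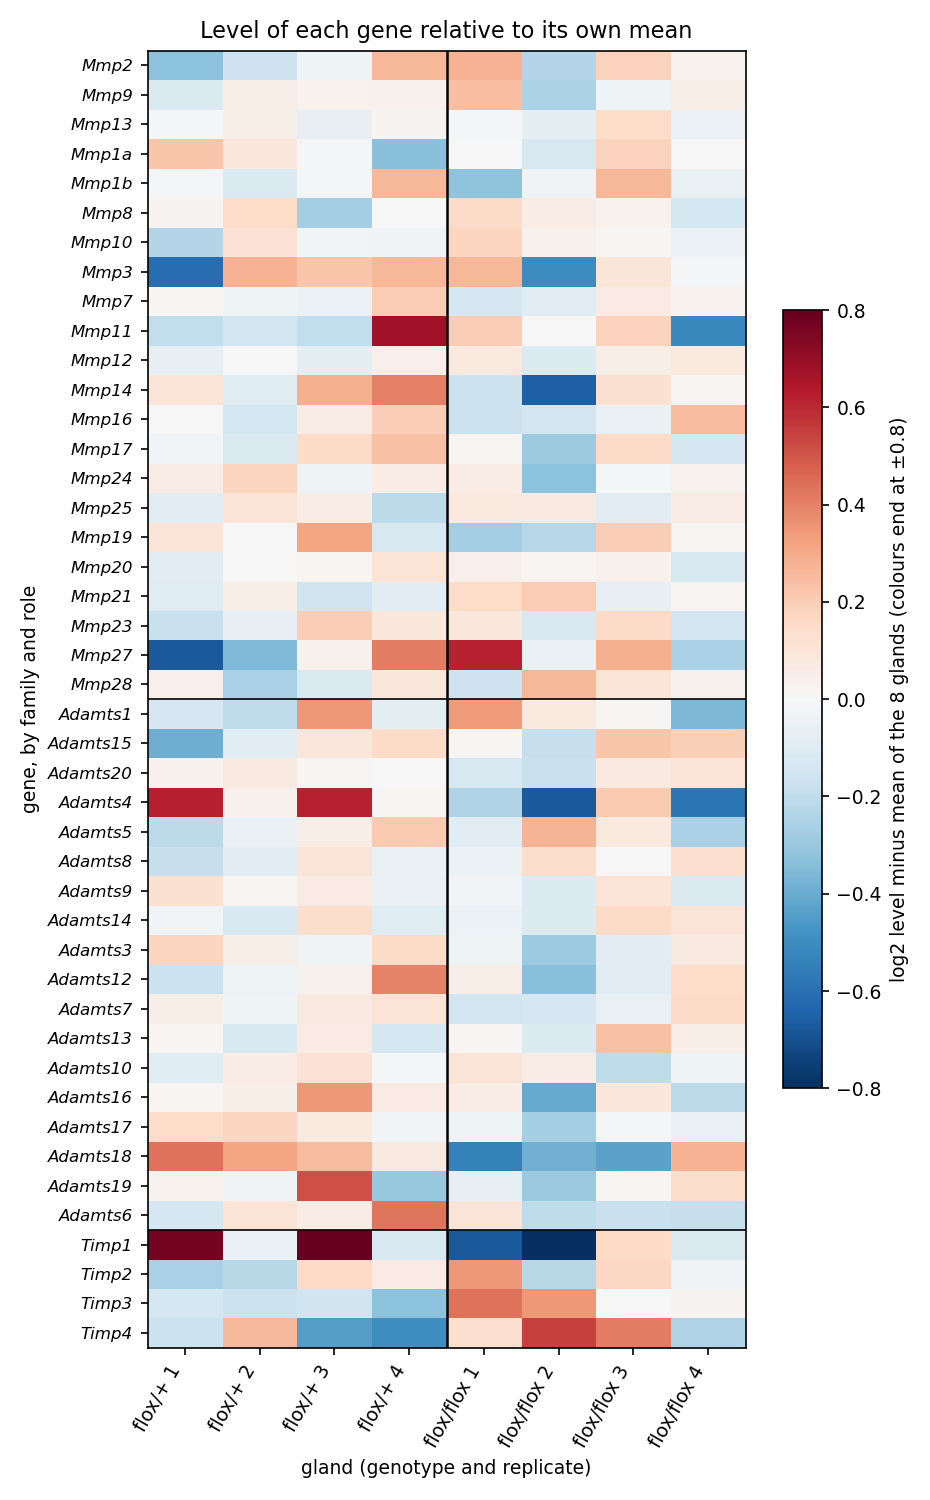
Log2 level of each of the 44 genes in each of the 8 glands minus the gene's mean over the glands, by genotype and family. Flox/flox replicate 2 is the lowest gland for 14 genes, Timp1 and Adamts4 share their high glands (flox/+ replicates 1 and 3), and each flox/flox gland exceeds each control for Timp3.

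Substrates of these enzymes mostly read lower in flox/flox glands, and none passed the test. Of 19 measured substrates 15 had negative differences, with a median of -0.27 beside -0.01 for all genes. At an unadjusted limma p under 0.05 there were 9 lower (47.4% of the list, against 5.46% of all genes) and 0 higher. Of the list, Col1a1, Col1a2, Col3a1 and Dcn also stand among the fibroblast markers, whose sums are given with Mmp14. The basement membrane collagen genes Col4a1 (-0.39 ± 0.09 SE, adjusted p = 0.180) and Col4a2 (-0.35 ± 0.09) and the thrombospondin gene Thbs2 (-0.61 ± 0.15) had the smallest p. Thbs2, an inhibitor of vessel growth, read 1002, 824, 1488 and 1055 in flox/+ and 689, 639, 689 and 755 in flox/flox replicates 1 to 4, without overlap. Vcan, the versican cut by Adamts1, Adamts4, Adamts5 and Adamts9, was chosen after its values were seen. It read 971, 780.2, 1054 and 692 in flox/+ and 475, 437, 756 and 784 in flox/flox replicates 1 to 4 (-0.53 ± 0.20), and its highest 2 glands, flox/+ replicates 1 and 3, were also those of Adamts4 and Timp1.

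Other matrix proteases read in both directions. Of 20 measured, 1 was higher and 2 were lower at an unadjusted limma p under 0.05, 15% against 10.3% of all genes, and none passed the test. Adam8, a membrane protease of leukocytes, read 191, 223, 201 and 189 in flox/+ and 343, 236, 279 and 276 in flox/flox replicates 1 to 4, without overlap (0.46 ± 0.10 SE, adjusted p = 0.180). Ctsk, the collagen-cutting cathepsin K, read 515, 314, 604 and 537 in flox/+ and 311, 276, 331 and 330.3 in flox/flox replicates 1 to 4 (-0.60 ± 0.17), with flox/+ replicate 2 at the level of the flox/flox glands. Adam12, a protease of stromal and fusing cells, was at -0.35 ± 0.12.

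**Figure D4:**
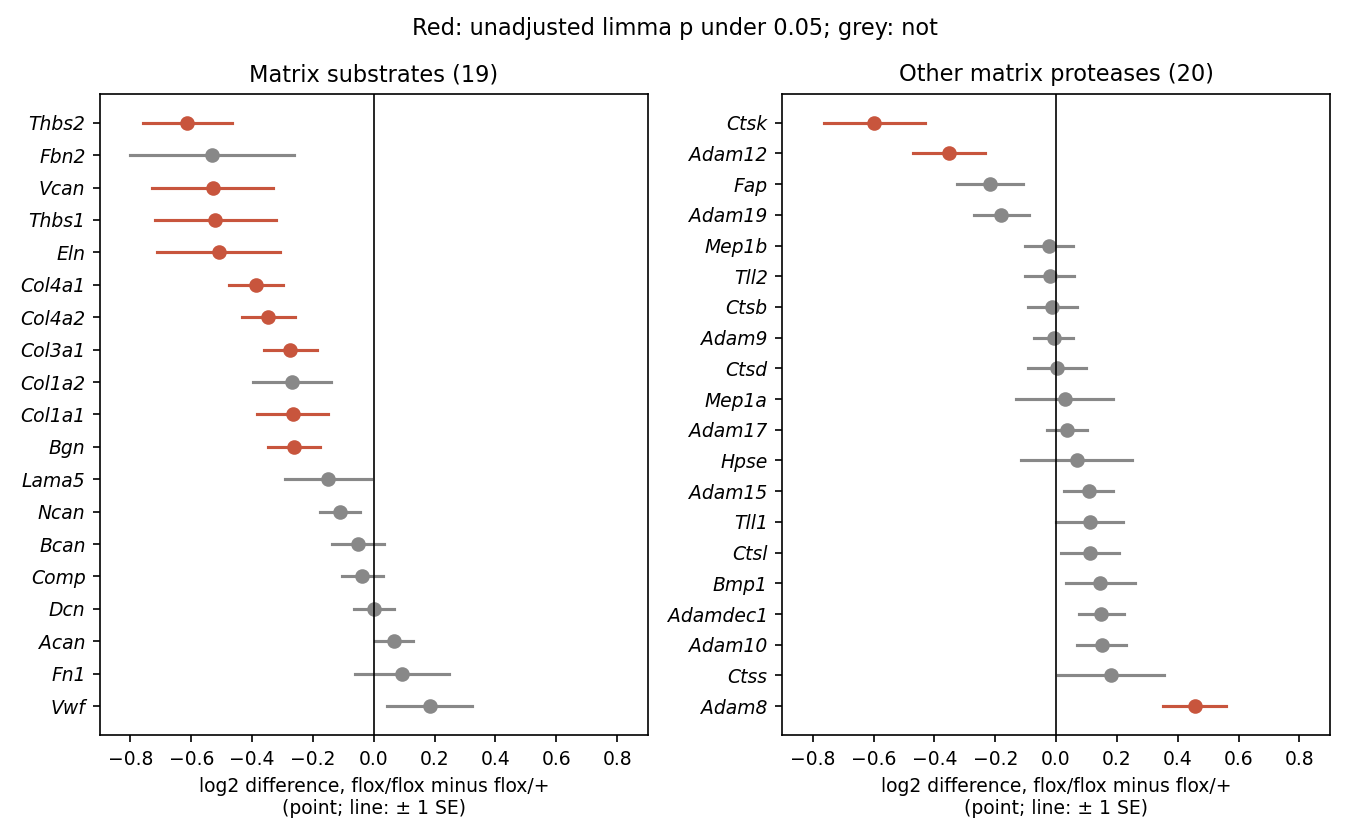
Log2 difference between flox/flox and flox/+ glands (point, with a line of 1 SE on each side) for 19 matrix substrates and 20 other matrix proteases, in red where the unadjusted limma p was under 0.05. The 9 red substrates lie left of 0, and the red proteases are Ctsk and Adam12 left of 0 and Adam8 right of it.

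Activators, other inhibitors and Adamts-like genes gave few genes at an unadjusted limma p under 0.05, a level that 10.3% of all genes reached, 4.8% higher and 5.46% lower. Of 10 measured activators and their regulators 1 was higher and 1 lower at that level (20%). Pcsk6, a proprotein convertase, read 424, 385, 361 and 411 in flox/+ and 593, 583, 459 and 448 in flox/flox replicates 1 to 4, without overlap (0.38 ± 0.10 SE, adjusted p = 0.253). The plasminogen activator genes differed in sign, with Plat at -0.35 ± 0.13 and Plau at 0.38 ± 0.17. In the list of inhibitors and clearance genes, 12 measured, 1 was higher (8.33%) and 0 were lower. The higher one, Pcolce2 (0.39 ± 0.18), is a procollagen C-proteinase enhancer gene, so no inhibitor or clearance gene proper was higher at that level. Next by p were Lrp1, a receptor that clears protease complexes (-0.17 ± 0.08), and the papilin gene Papln (-0.14 ± 0.10). Of the 5 Adamts-like genes, which lack the protease domain, 1 was higher (20%): Adamtsl4, which binds fibrillin, read 234.98, 233, 253 and 293 in flox/+ and 428, 319, 355 and 329 in flox/flox replicates 1 to 4, without overlap (0.47 ± 0.10, adjusted p = 0.180). Adamtsl3 was at 0.27 ± 0.13, with readings of 53.8 to 93.7, at the level of the dim members that cannot be told from background. No gene of these 3 lists passed the test.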

How the data were processed

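RNA of 8 glands was measured on Affymetrix Gene 1.0 ST arrays. Per the submitters' processing notes, the authors summarised probes with PLIER in Expression Console 1.0, and the table as deposited holds linear intensity. How background was corrected and arrays were scaled is not given in the sources used here. Medians as deposited, per array, ran from 159 to 178. Of 35557 probe sets 21789 had 1 gene symbol in the platform annotation, 1621 several and 12147 none.

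For each gene the probe set with the highest mean log2 value was used. Since array percentiles spread by up to 0.245 on the log2 scale, log2(intensity + 16) was quantile normalized over all probe sets. All 19938 genes were fitted with limma 3.58.1 (lmFit, then eBayes; R 4.3.3), with Benjamini-Hochberg adjustment over all of them. Single genes also had exact permutation tests over the 70 assignments of glands. The scripts were tested on simulated data. The labels name separate samples, and p-values measure the spread between these. The members, pathway lists and marker lists were chosen with earlier results of these data known, and no list was tested. Values in every gland are given for members with an unadjusted p under 0.05 or no overlap, the Timp genes, proteases known from mammary, adipose or stromal tissue and the 8 brightest members. Adamts3 and Mmp27 were added after their values were seen. Up to 3 genes of smallest p are named from each pathway list, and Vcan, Cd44 and the other Fos and Jun genes were added to these.

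All 44 members matched the RefSeq gene table by gene identifier, and 30 had a promoter window there. Deviations of same-numbered glands correlated between -0.204 and 0.209, and those of differently numbered glands between -0.219 and 0.208. So few correlations cannot show whether replicate numbers pair the glands, and the labels do not say. The main fit treated the glands as unpaired, with the replicate block as an alternative. Alternatives covered normalization, offset, a filter on dim genes, probe sets, moderation, weights, the replicate block and each array left out.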

Additional observations from a re-analysis of the deposited data

Results flagged for a closer look

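Within a genotype 1 gland stood far from the other 3 for 8 of the 88 sets of 4 values checked, where chance gives about 1 in 20. In the controls Mmp11 read 433 in flox/+ replicate 4 against 229 to 239 in the others. In flox/+ replicate 1 Mmp3 read 261 against 478 to 497, and Mmp9 read 158 against 176 to 179.7. Adamts16 read 154 in flox/+ replicate 3 against 119 to 124, and Timp3 read 1553 in flox/+ replicate 4 against 1733 to 1771. In flox/flox replicate 1 Adamts6 read 75.3 against 57.9 to 59.3. Mmp20 read 103 in flox/flox replicate 4 against 115 to 118, and Mmp25 read 119 in flox/flox replicate 3 against 134 to 136. Without flox/+ replicate 4 the Timp3 difference was 0.36, and with any gland left out it ran from 0.32 to 0.47.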

How the results depend on the processing

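In the limma fit 0 members passed the threshold, with 6 at an unadjusted p under 0.05, and 0 passed under any of the 18 alternatives. Of 780 values of single members under an alternative 749 kept the sign of the difference. Array weights turned Mmp1a (-0.0113), and the other changes of sign came from leaving out a gland. The members turned in that way, with their range over the 8 fits, were Adamts1 (-0.0763 to 0.16), Adamts10 (-0.0757 to 0.0283), Adamts12 (-0.18 to 0.00416), Adamts19 (-0.23 to 0.0484), Adamts5 (-0.0874 to 0.0910), Mmp11 (-0.14 to 0.15), Mmp13 (-0.0425 to 0.0312), Mmp1a (-0.0823 to 0.10), Mmp1b (-0.17 to 0.0299), Mmp20 (-0.0520 to 0.0197), Mmp23 (-0.0846 to 0.0409), Mmp3 (-0.29 to 0.0765), Mmp8 (-0.0343 to 0.11) and Mmp9 (-0.0748 to 0.0883), and the cause was not tested. Timp3, Adamts4 and Adamts18 had an unadjusted p under 0.05 in 18 of 18 alternatives, Timp1 in 13, Adamts17 in 11 and Timp4 in 7. The number of members lower at that level was 2 to 7 with a gland left out. The number higher was 1 to 2 with a gland left out. It was 1 with an offset of 1, without the dimmest genes, with all probe sets tested, with trend and robust moderation and with array weights, where Timp4 was the gene lost. The number without overlap was 0 to 3 in the lower direction and 1 to 2 in the higher with a gland left out, and 2 in the lower direction with the mean over probe sets (Adamts3 and Adamts17). The filter on dim genes removed 12 of the 44 members, which then have no value. With the replicate block 0 members passed the threshold, and 5 were lower and 2 higher at an unadjusted p under 0.05. Mmp14 and Adamts16 were among the lower and Adamts17 was not. The limma p of Adamts4 was then 8.86e-05 (adjusted p = 0.0654), against 0.0100 in the main fit. The number of arrays limits the results, as does signal that cannot be told from background in the 12 dim members, Mmp1a, Mmp1b and Mmp8 being the dimmest.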
